A study of Mus musculus with 21 samples.

Results

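The CCR4-NOT complex is the main enzyme that shortens the poly(A) tail of cytoplasmic mRNA, and 10 genes for its subunits were examined in mouse embryonic stem cells (ESCs) with and without the DEAD-box helicase DDX6. The genes were *Cnot1*, *Cnot2*, *Cnot3*, *Cnot4*, *Cnot6*, *Cnot6l*, *Cnot7*, *Cnot8*, *Cnot10* and *Cnot11*. They were chosen by symbol, matched to the Ensembl identifier of the count tables, and this rule uses no measured value. All 10 were among the 51467 genes of the tables and all 10 were among the 14518 genes that passed the filter on low counts and were tested.

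The cultures compared were 3 wild-type cultures, 2 cultures of *Ddx6* KO clone 1 and 2 cultures of *Ddx6* KO clone 2. The KO clones were made with CRISPR-Cas9 from V6.5 ESCs, and by the methods of the study each clone carries a premature stop, made by an insertion in one line and by a deletion in the other. Every culture, wild type included, was grown in serum with LIF and 2i (PD0325901 and CHIR99021) and was given 500 uM 4-thiouridine (4sU) for 30 min before RNA was extracted. Each extract was then divided: RNA that had taken up 4sU was biotinylated, pulled down and sequenced as nascent RNA, and the remainder was sequenced as total RNA after depletion of rRNA. The ratio of total to 4sU RNA is a relative measure of mRNA stability, and a fall of that ratio in KO cells was read as a fall of stability relative to the other genes. Each KO line is 1 clone with 2 cultures, so the spread between cultures of a clone does not cover the spread between clones.

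CNOT1 is the scaffold on which the complex is built. CNOT2 and CNOT3 form the NOT module at one of its ends, CNOT10 and CNOT11 dock at the opposite end, and the nuclease module in the middle pairs a CAF1-type nuclease (CNOT7 or CNOT8) with a CCR4-type nuclease (CNOT6 or CNOT6L). CNOT4 is a RING-type E3 ubiquitin ligase that is a stable subunit in yeast and is bound more loosely in mammals. Proteins that recognise sites in mRNA, among them the GW182 proteins of the microRNA machinery, recruit the complex through CNOT1 and its partners. CNOT1 also binds DDX6 directly, which joins shortening of the tail to repression of translation and to decapping. In ESCs, CNOT1, CNOT2 and CNOT3 are known as factors needed to keep the undifferentiated state.

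The 14 libraries held 2441639 to 3570192 counts for 4sU RNA and 5724179 to 7369651 counts for total RNA, and the 10 genes had 92 to 1531 counts per 4sU library and 237 to 9185 per total library. *Ddx6* total RNA was 335, 385 and 393 CPM in wild type, 57.5 and 68.0 CPM in clone 1 and 23.2 and 21.6 CPM in clone 2, a log2 fold change of -3.12 ± 0.32 (SE, edgeR adjusted p = 9.22e-06). Marker genes are given in CPM of library counts alone, without TMM factors. On that scale the 7 pluripotency markers, naive and general, summed to 4080 to 4238 CPM in wild type and 4715 to 4907 CPM in KO total RNA. Without TMM factors, means were higher in KO for each but *Tfcp2l1* (1253 CPM in wild type and 982 CPM in KO). TMM factors were 0.93 to 0.94 in wild-type and 1.03 to 1.05 in KO total libraries, so TMM scaling would lower KO relative to wild type. Small differences may not hold on the TMM scale. That of *Sox2* (438 and 473 CPM) is proportionally smaller than the difference between these factors, so mean *Sox2* was not higher in KO on that scale. Markers of other cells were low: the 3 primed epiblast markers summed to 17.6 to 20.8 CPM in wild type and 5.31 to 9.01 CPM in KO. The 3 primitive endoderm markers summed to 5.12 to 7.51 CPM in wild type and 6.13 to 7.88 CPM in KO. The 3 trophoblast markers summed to 12.5 to 16.6 CPM and 10.3 to 15.2 CPM. The 6 fibroblast markers summed to 3.14 to 5.34 CPM in wild type and were higher in KO, at 11.1 to 13.1 CPM. Among them, mean *Thy1* was 2.37 CPM in wild type and 7.41 CPM in KO, and mean *Col1a1* was 2.17 and 4.85 CPM. *Postn* and *Dcn* were at 0 in every total library. The part of these cells in the results on *Cnot* genes was not tested. In bulk RNA, a change in the share of cells of a type and a change in RNA per cell cannot be told apart.

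Levels are given as CPM (counts scaled to a common library size with TMM factors), and per kilobase of deposited gene length where genes are compared with each other. That length sums the annotated exons of a gene and can exceed the length of its main transcript. For *Cnot6* it was 5736 bases, while its principal transcript had 1659 coding bases and a 3′ UTR of 480 bases. The order of genes per kb depends on this length, and an order by transcript length was not examined. In wild-type total RNA *Cnot1* was the most abundant subunit, at 164 ± 6.71 CPM per kb (SD, n = 3), higher than 97.3% of the genes tested. *Cnot10* (55.3 ± 2.44) and *Cnot2* (45.9 ± 1.27 CPM per kb) followed, and the ranges of these first 3 over the wild-type cultures did not overlap. *Cnot7* (28.5 ± 1.35), *Cnot8* (28.2 ± 1.95), *Cnot3* (22.9 ± 3.94) and *Cnot11* (21.4 ± 0.73 CPM per kb) formed a middle group in which each overlapped its neighbour. *Cnot6* (14.7 ± 0.99), *Cnot4* (11.6 ± 0.54) and *Cnot6l* (5.09 ± 0.40 CPM per kb) came last, each apart from the next. The 10 mRNAs of this complex therefore spanned levels per kb from 5.09 to 164 in the same cells.

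The order in 4sU RNA was different. *Cnot1* (48.9 ± 2.93 CPM per kb) and *Cnot3* (46.6 ± 3.80) were highest and overlapped, although *Cnot3* was only sixth in total RNA. *Cnot7* followed with 30.8 ± 3.22 CPM per kb. *Cnot11*, *Cnot8*, *Cnot10* and *Cnot2* lay between 20.4 and 24.8 CPM per kb with overlapping ranges. *Cnot6* (16.5 ± 0.33), *Cnot4* (10.5 ± 1.18) and *Cnot6l* (5.34 ± 1.06 CPM per kb) were again the lowest and did not overlap each other. In KO cells *Cnot2* moved from the seventh to the fourth place in 4sU RNA (29.8 ± 1.63 CPM per kb, n = 4), and it changed places with *Cnot10* in total RNA, where *Cnot2* had 47.7 ± 0.95 and *Cnot10* had 41.5 ± 3.50 CPM per kb with ranges that did not overlap.

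**Figure D1:**
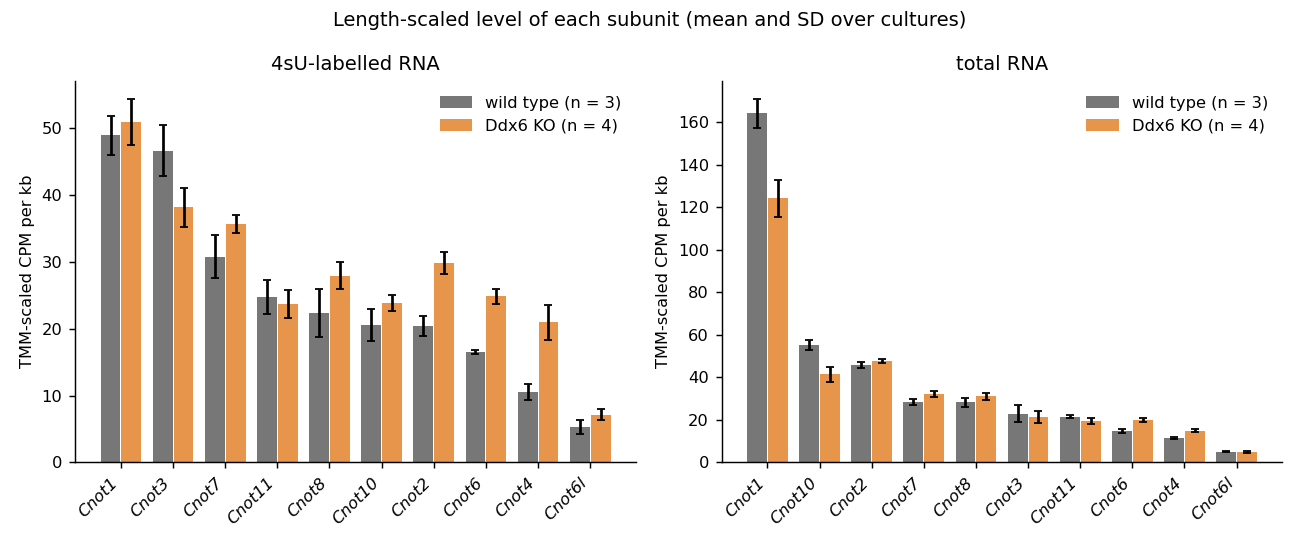
Level of each subunit in TMM-scaled CPM per kb of gene length, in 4sU RNA (left) and total RNA (right); bars are means and whiskers SD over 3 wild-type (grey) and 4 Ddx6 KO cultures (orange), with genes in the wild-type order of each panel. Cnot1 stood apart in total RNA (164 CPM per kb in wild type and 124 in KO), whereas Cnot3 was second in 4sU RNA and sixth in total RNA.

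The total-over-4sU ratio divided the subunits in wild type. It was highest for *Cnot1* (log2 ratio 1.75 ± 0.09, SD, n = 3, higher than 94.8% of genes), *Cnot10* (1.43 ± 0.15, higher than 89.2%) and *Cnot2* (1.17 ± 0.14, higher than 82.9%), none of which overlapped the next in order. *Cnot8*, *Cnot4*, *Cnot6l*, *Cnot7*, *Cnot6* and *Cnot11* followed with means from 0.34 down to -0.20, and each of the neighbours in this stretch overlapped. *Cnot3* was lowest, at -1.03 ± 0.36, with 26.1% of genes below it, and its range did not overlap that of *Cnot11*. The means of the 10 genes spanned 6.84-fold in wild type and 4.37-fold in KO. The median gene had a log2 ratio of 0.07 in wild type and 0.02 in KO, so *Cnot1*, *Cnot10* and *Cnot2* lay above the upper quartile of all genes (0.87) in wild type.

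**Figure D2:**
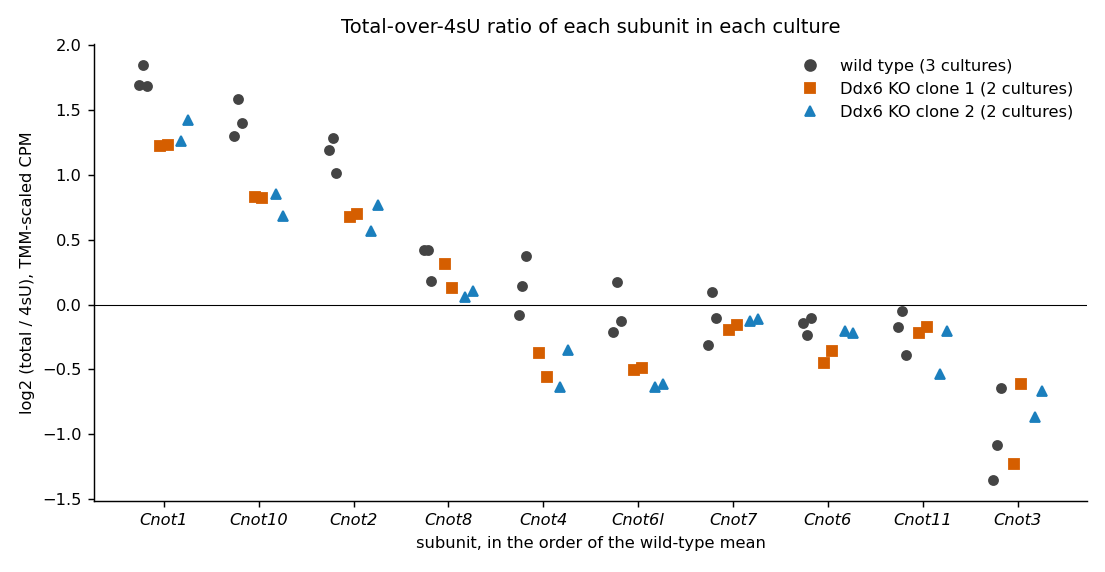
Log2 ratio of total to 4sU RNA (y axis, from TMM-scaled CPM) of each subunit in each culture; circles are 3 wild-type cultures, squares 2 cultures of Ddx6 KO clone 1 and triangles 2 cultures of clone 2. Cnot1, Cnot10 and Cnot2 were highest in wild type, and for these genes, Cnot4 and Cnot6l every KO culture lay below every wild-type culture.

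Across the 10 genes, nascent RNA was more often higher than lower in KO cells. At an adjusted p of 0.05, *Cnot2*, *Cnot4*, *Cnot6*, *Cnot6l*, *Cnot7*, *Cnot8* and *Cnot10* rose and *Cnot3* fell, against 20.6% of all genes that rose and 21.0% that fell. *Cnot1* and *Cnot11* did not pass, and *Cnot1* passed with library-size scaling. The 4 KO cultures were all above the wild-type cultures for 4 of the genes (*Cnot2*, *Cnot4*, *Cnot6* and *Cnot7*) and all below them for *Cnot3*, beside 41.7% of all genes with cultures that did not overlap. The median log2 fold change of the 10 was 0.27, and that of all genes was 0.0009. With counts scaled by library size alone the median of all genes moved by 0.21 in nascent and by 0.16 in total RNA. Relative to the median of all genes, 8 of the 10 were above it and *Cnot3* and *Cnot11* below it. A change of scaling moves all genes by about the same amount, so the 5 scalings tried could hardly alter this. The count of 8 changed genes became 3 without wild-type culture 2, when *Cnot2*, *Cnot4* and *Cnot6* still passed, 4 with clone 1 alone and 5 with clone 2 alone. It was 5 when the 4sU counts came from the second sequencing run alone, and 0 of the genes changed sign among those that had passed.

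In total RNA 3 genes rose (*Cnot4*, *Cnot6* and *Cnot7*) and 2 fell (*Cnot1* and *Cnot10*), against 19.5% and 31.0% of all genes. Their cultures did not overlap for those 5 and for *Cnot11*, beside 52.4% of all genes. The median of the 10 was -0.01 and that of all genes -0.10. The shares that rose and fell were near those of all genes. *Cnot7* no longer passed with clone 1 alone (adjusted p = 0.0745), without wild-type culture 1 (0.125) or without the first culture of clone 2 (0.0576).

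The total-over-4sU ratio fell for 5 of the 10 genes, *Cnot1*, *Cnot2*, *Cnot4*, *Cnot6l* and *Cnot10*, and rose for 0 of them, where 8.58% of all genes fell and 3.79% rose. For these 5 every KO culture was below every wild-type culture, beside 22.9% of all genes with cultures that did not overlap in either direction. The share of all genes with KO cultures below alone is smaller and was not counted. The other 5 genes did not pass, with log2 fold changes from -0.18 for *Cnot8* to 0.17 for *Cnot3*. At an unadjusted p under 0.05 there were also 0 rises by edgeR, and DESeq2 and limma-voom gave 0 at the adjusted p. The median of the 10 was -0.32 with -0.09 for all genes. In this fit the change of the ratio is that of total RNA minus that of nascent RNA, so the nascent rises and the falls of the ratio share the 4sU values. For *Cnot2* (0.54 nascent, 0.06 total) and *Cnot6l* (0.43 nascent, -0.08 total) nascent RNA rose and total RNA did not pass. At the additional limit of a 2-fold change, 0 of the 10 passed in nascent RNA, total RNA or the ratio, against 10.9%, 10.1% and 1.08% of all genes. DESeq2 and limma-voom likewise gave 0 in each, and 11 of the alternatives gave 1 in nascent RNA, *Cnot4*. In the ratio, the median of all genes was -0.002 with TMM factors computed within each assay, and 4 of the 5 genes still passed there, the exception being *Cnot6l*. With that scaling 734 of the 14518 genes rose and 577 fell, where the main fit had 550 rises and 1246 falls. The excess of falls over rises among all genes thus depends on the scaling.

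**Figure D3:**
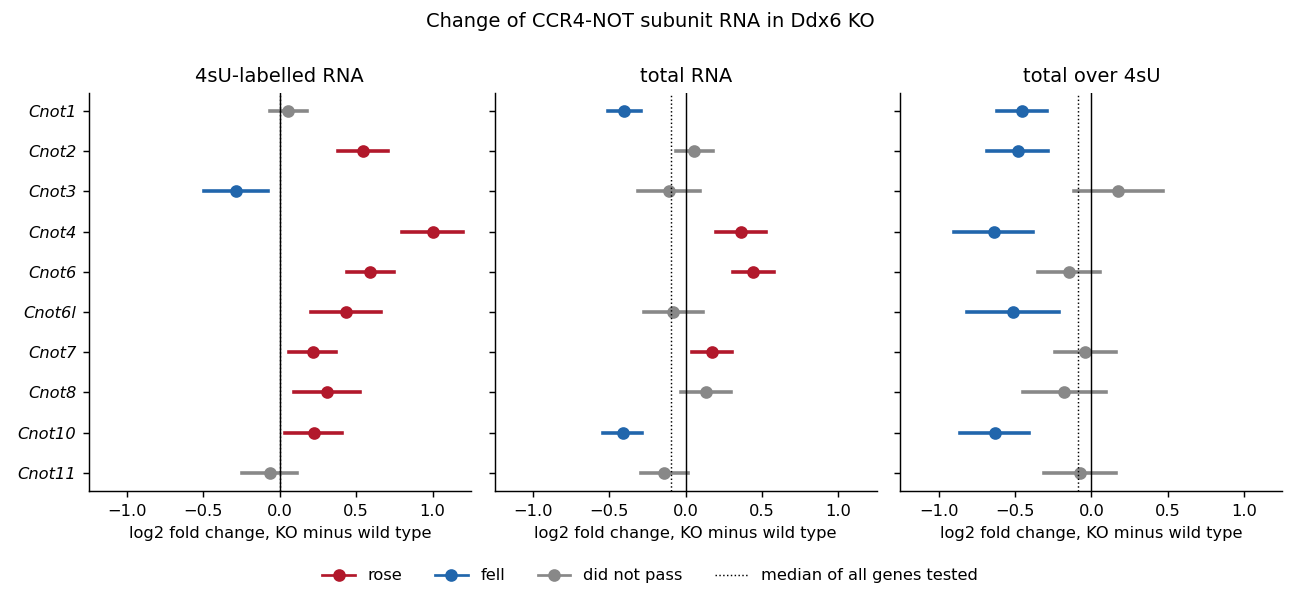
Log2 fold change of each subunit, KO minus wild type, in 4sU RNA, total RNA and their ratio; points are edgeR estimates from 3 wild-type and 4 KO cultures, bars are 95% confidence intervals, red marks genes that rose, blue those that fell and grey those that did not pass an adjusted p of 0.05, and the dotted line is the median of all genes tested. Nascent RNA rose for 7 genes, and the ratio, which shares the 4sU values, fell for 5 and rose for 0.

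The scaffold gene *Cnot1* (ENSMUSG00000036550, chr8:95719451-95807464, minus strand, GRCm38, 49 exons in its principal transcript) did not pass in nascent RNA and fell in total RNA. In 4sU RNA it had 405, 389.5 and 438 CPM in the wild-type cultures, 402 and 438 CPM in clone 1 and 463 and 404 CPM in clone 2. These values overlapped, with a log2 fold change of 0.05 and a 95% interval from -0.07 to 0.18. In total RNA it had 1312, 1406 and 1413 CPM in wild type, 942 and 1031 CPM in clone 1 and 1109 and 1085 CPM in clone 2, and all KO cultures were lower. Total *Cnot1* thus fell by 0.40 ± 0.05 on the log2 scale (SE, edgeR adjusted p = 7.63e-09). The log2 ratio was 1.70, 1.85 and 1.69 in wild type, 1.23 and 1.23 in clone 1 and 1.26 and 1.42 in clone 2. It fell by 0.46 ± 0.08 (adjusted p = 5.45e-05), which is a ratio 0.728 times that in wild type, and it passed under all 21 alternatives, where its adjusted p ranged from 3.67e-07 to 0.0055.

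The 5 genes whose levels went most like those of *Cnot1* over the 14 libraries, each centred within its assay, were *Uhrf1* (Pearson r = 0.93), *Upf2* (0.93), *Gigyf2* (0.93), *Slc10a7* (0.92) and *Hsbp1* (0.91). Each had a nascent log2 fold change between -0.02 and 0.07 and a total log2 fold change between -0.41 and -0.20. Genes picked for this likeness resemble *Cnot1* in these fold changes by the choice itself. Among the other subunits *Cnot10* was nearest to *Cnot1* by this measure (r = 0.72), followed by *Cnot11* (0.46), while *Cnot6* had the lowest value (-0.39). These libraries share the difference between genotypes, so the coefficients describe these cultures only.

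In the NOT module, *Cnot2* and *Cnot3* differed. *Cnot2* (ENSMUSG00000020166, chr10:116485161-116581511, minus strand) had 68.7, 67.4 and 77.1 CPM in wild-type 4sU RNA, 101.0 and 104 CPM in clone 1 and 111 and 98.2 CPM in clone 2. All KO cultures were higher, and nascent *Cnot2* rose by 0.54 ± 0.08 (adjusted p = 1.65e-07), or 1.46-fold. Total *Cnot2* was 158, 165 and 156 CPM in wild type, 162 and 169 CPM in clone 1 and 165 and 168 CPM in clone 2. These values overlapped, with an interval of the log2 fold change from -0.06 to 0.18, and total *Cnot2* passed, as a rise, under 2 of 20 alternatives. The log2 ratio of *Cnot2* was 1.20, 1.28 and 1.02 in wild type, 0.68 and 0.70 in clone 1 and 0.57 and 0.77 in clone 2. The ratio fell by 0.48 ± 0.10 (adjusted p = 0.000563), and passed under all 21 alternatives with an adjusted p of at most 0.0415.

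*Cnot3* (ENSMUSG00000035632, chr7:3645268-3661109, plus strand) was the subunit whose nascent RNA fell. It had 138, 137 and 119 CPM in wild-type 4sU RNA, 114 and 98.2 CPM in clone 1 and 115 and 103 CPM in clone 2. The KO cultures were all lower, by 0.29 ± 0.10 on the log2 scale (adjusted p = 0.0262), but the call was lost under 8 of 20 alternatives, among them library-size scaling (-0.08, adjusted p = 0.542) and the removal of wild-type culture 2, of the second culture of clone 1 or of the second culture of clone 2. Total *Cnot3* was 53.8, 64.4 and 76.0 CPM in wild type, 48.1 and 64.1 CPM in clone 1 and 63.1 and 65.0 CPM in clone 2. The groups overlapped, and the log2 ratio was the most variable of the 10 within wild type, at -1.35, -1.08 and -0.64. The exons of *Cnot3* share 433 bases with those of *Leng1* on the opposite strand, and the counting was set to one strand.

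In the *Cnot10* and *Cnot11* pair only *Cnot10* passed in total RNA and in the ratio, and the difference between the pair was not tested. *Cnot10* (ENSMUSG00000056167, chr9:114585878-114640184, minus strand) had 185, 181 and 169.7 CPM in wild-type total RNA, 139.7 and 128 CPM in clone 1 and 147 and 121 CPM in clone 2. All KO cultures were lower, and total *Cnot10* fell by 0.41 ± 0.06 on the log2 scale (adjusted p = 2.47e-07). Nascent *Cnot10* was 74.9, 59.7 and 64.1 CPM in wild type, 78.2 and 72.2 CPM in clone 1 and 81.1 and 75.5 CPM in clone 2. Its rise of 0.22 ± 0.09 was at the edge of the threshold (adjusted p = 0.0495) and was lost under 11 of 20 alternatives, DESeq2, limma-voom and the removal of any of wild-type cultures 2 and 3 or of the first culture of either clone among them. The log2 ratio of *Cnot10* was 1.30, 1.59 and 1.40 in wild type, 0.83 and 0.82 in clone 1 and 0.85 and 0.68 in clone 2. It fell by 0.63 ± 0.11 (adjusted p = 5.18e-05), and only 6.7% of genes had a lower log2 fold change.

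*Cnot11* (ENSMUSG00000003135, chr1:39534992-39546889, plus strand) had 73.9 to 94.5 CPM over the 4sU libraries and 63.4 to 77.2 CPM over the total libraries. Its log2 fold changes were -0.07 in nascent RNA, -0.14 in total RNA and -0.07 in the ratio, and none passed. The total libraries of the KO cultures (71.1, 72.0, 63.4 and 64.1 CPM) were all just below those of wild type (77.2, 74.2 and 72.1 CPM). The sign of each of these changed under at least 1 alternative, and the 95% interval of the ratio ran from -0.31 to 0.16.

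The CCR4-type nucleases showed higher nascent RNA in KO cells for each gene, with different totals. *Cnot6* (ENSMUSG00000020362, chr11:49671503-49712723, minus strand) had 95.3, 92.3 and 95.9 CPM in wild-type 4sU RNA, 146 and 149 CPM in clone 1 and 136 and 138 CPM in clone 2. It rose by 0.59 ± 0.08 (adjusted p = 3.98e-09), or 1.51-fold. Total *Cnot6* was 86.3, 78.2 and 89.1 CPM in wild type, 107 and 117 CPM in clone 1 and 118 and 118 CPM in clone 2, a rise of 0.44 ± 0.07 (adjusted p = 8.98e-08). Nascent and total *Cnot6* went up together, in all 20 alternatives each, and the ratio did not pass (-0.15, interval -0.35 to 0.06).

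*Cnot6l* (ENSMUSG00000034724, chr5:96070333-96164171, minus strand) had 56.7, 38.1 and 46.3 CPM in wild-type 4sU RNA, 54.0 and 59.1 CPM in clone 1 and 67.8 and 70.2 CPM in clone 2. The groups overlapped, and the rise of 0.43 ± 0.11 (adjusted p = 0.00168) was lost with clone 1 alone and without wild-type culture 2, with an adjusted p of at most 0.0869. Total *Cnot6l* was 48.9, 43.1 and 42.5 CPM in wild type, 37.9 and 42.0 CPM in clone 1 and 43.4 and 45.7 CPM in clone 2. These overlapped, and the log2 fold change of -0.08 had an interval from -0.27 to 0.11. The log2 ratio was -0.21, 0.18 and -0.12 in wild type, -0.51 and -0.49 in clone 1 and -0.64 and -0.61 in clone 2. It fell by 0.51 ± 0.15 (adjusted p = 0.0155), and the call was lost under 5 of 21 alternatives, DESeq2, clone 1 alone and the removal of wild-type culture 2 among them, with an adjusted p of at most 0.137.

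Of the 10 genes, *Cnot6l* had the longest 3′ UTR, with 6847 bases in the principal transcript (longer than 98.7% of the 11950 tested protein-coding genes with an annotated 3′ UTR). Its principal transcript was also the only one of the 10 with a match to all of bases 2 to 8 of the miR-290 family, which is abundant in ESCs, and of the miR-302 family. MicroRNAs recruit CCR4-NOT to their targets. The mature sequences below, from RefSeq (GRCm38.p6), are shown because they share bases 2 to 8, the seed, in capitals.
miR-291a-3p: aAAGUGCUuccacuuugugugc
miR-294-3p: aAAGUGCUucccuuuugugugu
miR-295-3p: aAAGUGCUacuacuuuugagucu
miR-302b-3p: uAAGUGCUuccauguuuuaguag
miR-302d-3p: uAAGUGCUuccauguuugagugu
The 8-base site that pairs with this seed, AGCACTTA, was searched on the transcript strand of the 3′ UTR and was present in 3.38% of the 11950 genes. The 7-base site AGCACTT, which lies within it, was present in 16.5%. The 6-base site GCACTT, which lies within both, was present in 31.6%. It was found in the principal transcripts of *Cnot4*, *Cnot6l*, *Cnot7* and *Cnot10*. The other 7-base site, GCACTTA, was not searched by itself. The 7-base and 8-base matches in the CCR4-type nucleases are given with the site in capitals. That of *Cnot6l* lies at chr5:96076647-96076676, and those of *Cnot6*, at chr11:49673033-49673062 and chr11:49672183-49672211, lie in the longer 3′ UTR of another *Cnot6* transcript (3690 bases) and outside the 480 bases of the principal transcript.
Cnot6l 8-base site: cacattatcaaAGCACTTAaatttgcttga
Cnot6 8-base site: gagaggggaggAGCACTTActcatctctgc
Cnot6 7-base site: tatttcatattAGCACTTtgaaacctaaa
The microRNAs themselves were not measured in these libraries, and whether these matches are used was not tested.

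The share of *Cnot6l* among the transcripts of the CCR4-type pair, from counts per kb, did not overlap between genotypes in total RNA. The size of this share depends on the deposited lengths (8814 bases for *Cnot6l* and 5736 bases for *Cnot6*). The share was 26.9%, 26.4% and 23.7% in wild type, 18.7% and 19% in clone 1 and 19.3% and 20.2% in clone 2, so that *Cnot6* was the more abundant of the pair in every culture. The means were 25.7% ± 1.75 (SD, n = 3) and 19.3% ± 0.63 (n = 4), a difference of -6.40 percentage points (two-sided exact permutation test, p = 0.0571, the smallest that 3 against 4 cultures allow). In 4sU RNA the share was 27.9%, 21.2% and 23.9% in wild type, 19.4% and 20.5% in clone 1 and 24.5% and 24.9% in clone 2. These overlapped (difference -2.03 percentage points, exact permutation p = 0.457), and the difference was -0.23 without wild-type culture 1, -3.61 without wild-type culture 2, -1.04 without the first culture of clone 1 and 0.87 with the second 4sU run alone.

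Of the CAF1-type nucleases, *Cnot7* rose in nascent and in total RNA. *Cnot7* (ENSMUSG00000031601, chr8:40492540-40515847, minus strand) had 128, 104 and 121 CPM in wild-type 4sU RNA, 137 and 137 CPM in clone 1 and 143 and 130.2 CPM in clone 2. In total RNA it had 103, 112 and 113 CPM in wild type, 119.6 and 122 CPM in clone 1 and 131 and 121 CPM in clone 2. The KO cultures were higher in each fraction, by 0.21 ± 0.08 (adjusted p = 0.0183) and 0.17 ± 0.07 (adjusted p = 0.0227), and the ratio did not pass (-0.04, interval -0.24 to 0.16). The nascent call was lost under 4 of 20 alternatives, among them DESeq2 and the removal of wild-type culture 2.

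*Cnot8* (ENSMUSG00000020515, chr11:58104153-58118594, plus strand) had 40.8, 44.7 and 55.4 CPM in wild-type 4sU RNA and 54.9 to 64.7 CPM in KO, with an overlap between the highest wild-type and the lowest KO culture. The rise of 0.31 ± 0.11 (adjusted p = 0.0157) was lost under 6 of 20 alternatives, the removal of wild-type culture 1 or 2 or of the first culture of clone 2 included. Total *Cnot8* was 54.7 to 62.8 CPM in wild type and 61.6 to 68.3 CPM in KO. Its log2 fold change of 0.13 did not pass (adjusted p = 0.174), and it passed under 4 of 20 alternatives, library-size scaling (at 0.29) and TMM within each assay among them.

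The shares within the CAF1-type pair overlapped between genotypes. *Cnot7* made up 63.3%, 56.1% and 54.5% of the pair in wild-type 4sU RNA, 57.7% and 56.6% in clone 1 and 54.7% and 55.4% in clone 2. In total RNA it was 50.8%, 50.4% and 49.6% in wild type, 48.9% and 51.6% in clone 1 and 51.6% and 51.7% in clone 2. The genotypes overlapped in each fraction (differences of -1.87 and 0.64 percentage points, exact permutation p = 0.686 and 0.4). The 4sU difference was 0.80 without culture 1 and -3.60 without culture 3. In total RNA the difference was 0.31 to 1.31 when single cultures were left out, lowest without wild-type culture 3 and highest without the first culture of clone 1.

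**Figure D4:**
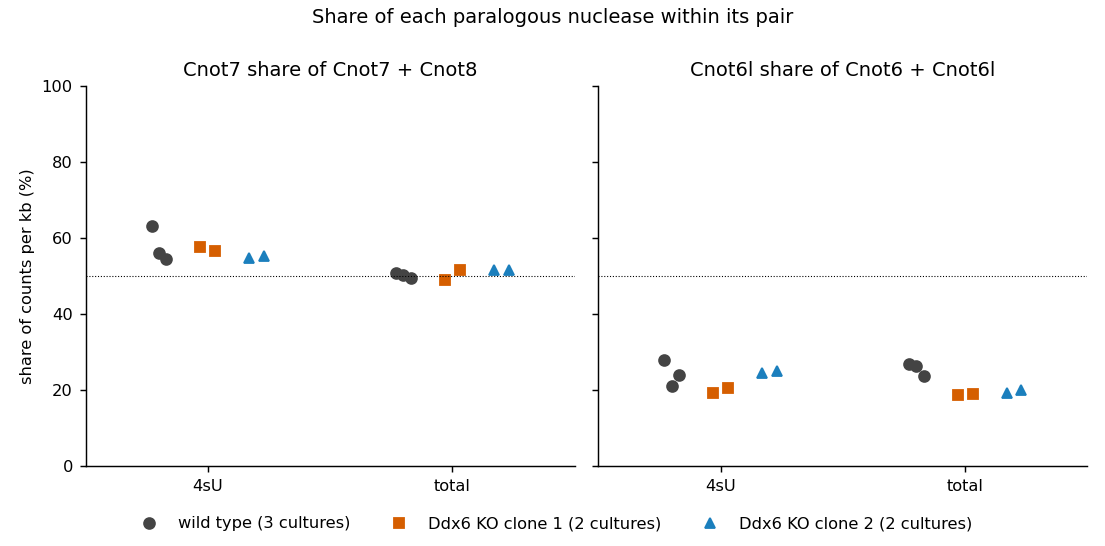
Share of Cnot7 within Cnot7 and Cnot8 (left) and of Cnot6l within Cnot6 and Cnot6l (right), in percent of counts per kb, in 4sU and total RNA; circles are wild-type cultures, squares clone 1 and triangles clone 2, and the dotted line marks equal shares. The share of Cnot6l in total RNA was 23.7% to 26.9% in wild type and 18.7% to 20.2% in KO, and the other shares overlapped.

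The E3 ligase gene *Cnot4* (ENSMUSG00000038784, chr6:35022065-35133724, minus strand) had the largest nascent rise of the 10. It had 57.6, 51.7 and 46.0 CPM in wild-type 4sU RNA, 95.0 and 102 CPM in clone 1 and 122 and 93.2 CPM in clone 2. The rise was 1.00 ± 0.10 on the log2 scale (adjusted p = 1.08e-12), or 2.00-fold, which lies at the 2-fold limit and passed it under several alternatives. Total *Cnot4* was 54.5, 57.1 and 59.8 CPM in wild type, 73.4 and 69.2 CPM in clone 1 and 78.3 and 73.0 CPM in clone 2. All KO cultures were higher, by 0.36 ± 0.08 (adjusted p = 0.000183), which is less than in nascent RNA. The log2 ratio was -0.08, 0.14 and 0.38 in wild type, -0.37 and -0.56 in clone 1 and -0.64 and -0.35 in clone 2, a fall of 0.64 ± 0.13 (adjusted p = 0.000378). It passed under all 21 alternatives.

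*Cnot4* is the only one of the 10 on chromosome 6, whose genes were higher as a group in the KO libraries. The 735 tested genes of that chromosome had a median log2 fold change of 0.53 in nascent RNA, 0.43 in total RNA and -0.13 in the ratio, and the 13783 other genes had medians of -0.02, -0.12 and -0.09. *Cnot4* was 0.47 above the chromosome median in nascent RNA, 0.07 below it in total RNA and 0.51 below it in the ratio. In the ratio, 57 of the 735 genes were lower than *Cnot4*. The part of the chromosome in the levels of *Cnot4* was not tested.

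**Figure D5:**
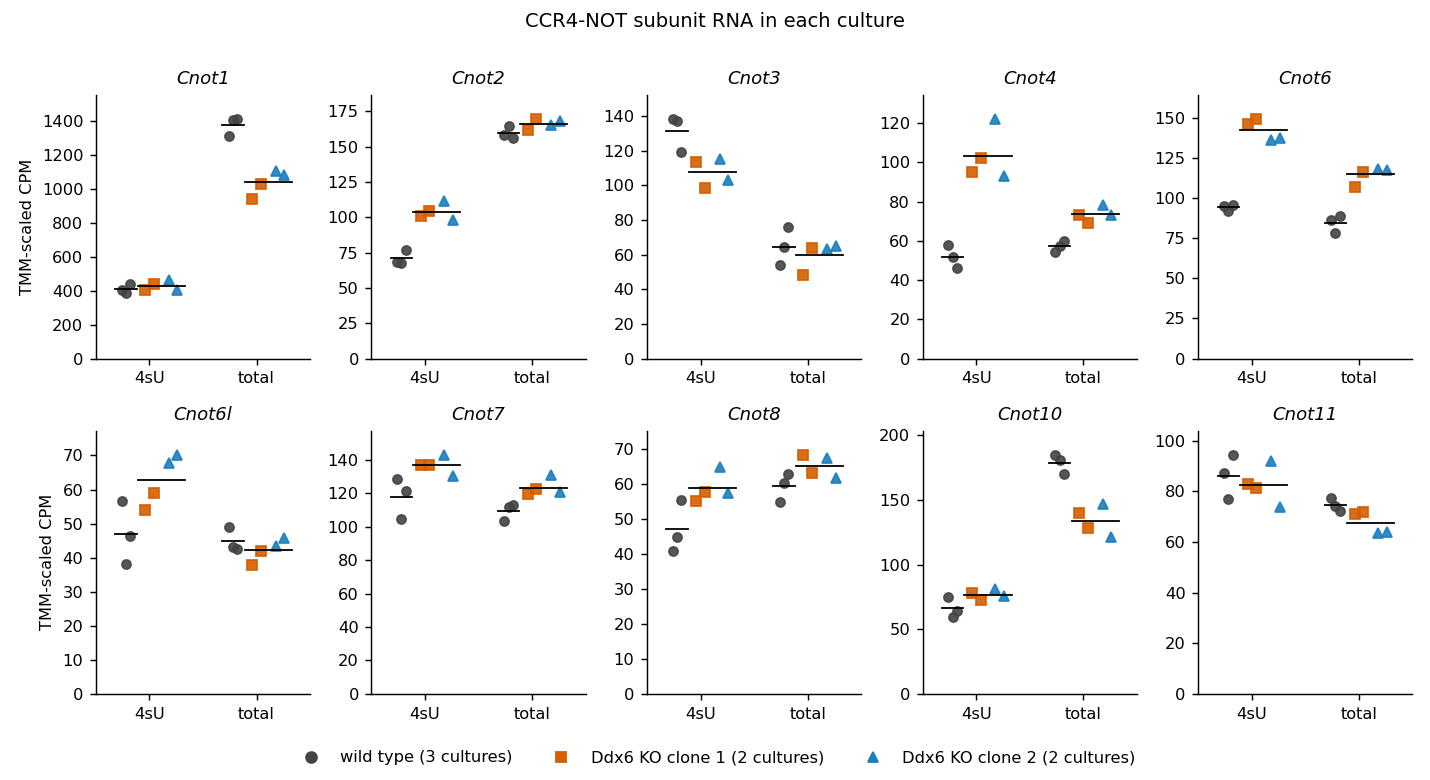
TMM-scaled CPM of each subunit in 4sU and total RNA of each culture (y axes from 0, one panel per gene); circles are wild-type cultures, squares clone 1, triangles clone 2, and lines are the means of the 3 wild-type and 4 KO cultures. Nascent Cnot2, Cnot4, Cnot6 and Cnot7 were higher in every KO culture, and total Cnot1 and Cnot10 were lower.

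Between the clones, 0 of the 10 genes passed an adjusted p of 0.05 by edgeR, in nascent RNA, total RNA or the ratio, where 0.172%, 0.296% and 0.00689% of all genes differed. At an unadjusted p under 0.05 there was 1 gene in nascent RNA (*Cnot6l*, 0.29 higher in clone 2 with an interval from 0.04 to 0.54), 1 in total RNA (*Cnot1*, 0.15 higher in clone 2 with an interval from 0.02 to 0.29) and 0 in the ratio. DESeq2 and limma-voom gave 0 genes at the adjusted p in each of the 3 comparisons. The intervals of the 10 genes reached at most 0.54 in nascent RNA, 0.44 in total RNA and 0.51 in the ratio on the log2 scale, and differences up to that size lie within them with 2 cultures each. *Ddx6* RNA itself did differ between the clones and was lower in clone 2 (log2 difference -1.49 in total RNA).

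The 10 genes also differ in structure. Their coding parts had 858 bases (*Cnot7*) to 7110 bases (*Cnot1*), with a median of 1656 bases and 1404 bases for all 11950 genes. Coding GC content was 56.6% for *Cnot3* and *Cnot11* and 41.8% to 49.4% for the other 8, beside a median of 53.1% for all genes. Neither *Cnot3* nor *Cnot11* was among the 5 whose ratio fell in KO, and neither were *Cnot7* (41.8%), *Cnot6* (42.2%) and *Cnot8* (49.4%). With 10 genes that share every library, this is a description only.

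Pumilio proteins also recruit CCR4-NOT, and the element they bind, TGTANATA, was searched in the 3′ UTR of the principal transcript on the transcript strand. It was present in *Cnot1*, *Cnot2*, *Cnot6l*, *Cnot7*, *Cnot8* and *Cnot11*, 6 of the 10, and in 25.5% of the 11950 genes. Of the 5 genes whose ratio fell, *Cnot1*, *Cnot2* and *Cnot6l* held it and *Cnot4* and *Cnot10* did not. The other 5 divided alike: *Cnot7*, *Cnot8* and *Cnot11* held it and *Cnot3* and *Cnot6* did not. The matches of *Cnot1*, *Cnot2* and *Cnot6l* are shown with the element in capitals, at chr8:95720159-95720188, chr10:116485483-116485512 and chr5:96075175-96075204 on the minus strand (GRCm38).
Cnot1 element: ttttgaacttgTGTAAATAtatgaaagaga
Cnot2 element: atgtacgaatgTGTATATAttatatatatg
Cnot6l element: gcaaagtttgaTGTAAATAaaatattcttt
The AU-rich element TATTTAT was present in 4 of the 10 (*Cnot3*, *Cnot6l*, *Cnot7* and *Cnot8*) and in 28.8% of all genes. These matches are of letters only and were not tested as binding sites.

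Other genes of the pathway came from 3 lists of 43 genes, of which 41 were tested. Their counts stand beside the shares of all genes, of which 20.6% rose and 21.0% fell in nascent RNA, 19.5% rose and 31.0% fell in total RNA, and 3.79% rose and 8.58% fell in the ratio. Among other deadenylases and adaptors, 3 of 15 rose and 5 fell in nascent RNA, 3 rose and 6 fell in total RNA, and 2 rose and 2 fell in the ratio. In the ratio the falls were *Pan3* (-0.94 ± 0.14, SE), the adaptor of the PAN2-PAN3 deadenylase, and *Angel2* (-0.48 ± 0.15). The rises were *Tob2* (0.82 ± 0.12), whose protein links poly(A)-binding protein to the CAF1-type nucleases, and *Pabpc4* (0.38 ± 0.11), a poly(A)-binding protein. In nascent RNA *Angel2* (0.66) and *Tob1* (0.57) rose most and *Pabpc4* (-1.04) and *Pabpc1* (-0.74) fell most. In total RNA *Tob1* (0.55) and *Tob2* (0.48) rose most and *Pabpc1* (-0.88) and *Pan2* (-0.68) fell most. *Cnot9*, a further subunit of the complex that is in this list and was picked for mention after its values were seen, had log2 fold changes of -0.03 in nascent RNA, -0.23 in total RNA (adjusted p = 0.00373) and -0.20 in the ratio (adjusted p = 0.281).

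Of the proteins that recruit CCR4-NOT, 6 of 15 rose and 3 fell in nascent RNA, 7 rose and 5 fell in total RNA, and 2 rose and 1 fell in the ratio. The 3 GW182 genes of this list, all given here after their values were seen, did not all move in one direction. *Tnrc6a* rose in nascent RNA (0.35), total RNA (0.86) and the ratio (0.51 ± 0.10). *Tnrc6b* rose in nascent (0.55) and total RNA (0.65) and did not pass in the ratio (0.10). *Tnrc6c* fell in total RNA (-0.20, adjusted p = 0.00478) and did not pass in nascent RNA (0.004) or the ratio (-0.21). *Rc3h2* (0.68) rose most in nascent RNA and *Zfp36*, which binds AU-rich elements, most in total RNA (0.95), while *Nanos1* (-1.17 nascent, -0.87 total) and *Nanos3* (-1.15 nascent, -2.42 total) fell. *Zfp36l1* rose in the ratio (0.38) and *Rc3h1* fell (-0.28). On the decapping side, 3 of 11 rose and 2 fell in nascent RNA, 0 rose and 7 fell in total RNA, and 0 rose and 2 fell in the ratio, with the knocked-out *Ddx6* itself among the falls in total RNA and the ratio. The falls in the ratio were *Ddx6* (-2.71 ± 0.46) and *Lsm14a* (-0.31 ± 0.10), and in total RNA *Lsm14b* (-0.49) followed *Ddx6*. In nascent RNA *Eif4enif1* (0.35) and *Patl1* (0.29) rose and *Edc4* (-0.28) and *Dcp2* (-0.18) fell. The median log2 fold change of the 41 genes was -0.13 in the ratio, beside -0.09 for all genes and -0.32 for the 10 subunits.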

How the data were processed

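The authors trimmed reads with cutadapt 1.14, aligned them to mm10 with STAR 2.5.3a and counted uniquely aligned reads per gene on the reverse strand with featureCounts 1.5.3 against basic Gencode M14 annotation; the deposited values are raw counts per gene. The 7 libraries of 4sU RNA were sequenced in 2 runs, single-end and paired-end, and these counts were summed per library. The 92 spike-in rows held 0 counts and were left out. Every column of sample values was used.

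Genes that reached 3 CPM in 3 or more of the 14 libraries were tested with edgeR 4.0.16 (R 4.3.3; TMM, robust quasi-likelihood test, genotype, assay and their interaction), with Benjamini-Hochberg adjustment over all 14518 genes; rose or fell means an adjusted p under 0.05. DESeq2, limma-voom, other scalings, filters, single runs, clones and left-out cultures were the alternatives. The scripts were tested on simulated data. CPM values use TMM-scaled library sizes, except those of the marker genes, which use library counts alone, and log2 ratios add 0.5 CPM. Shares used an exact permutation test over cultures (scipy 1.17.1). Annotation was Gencode M21 on GRCm38.

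4sU and total RNA of a culture come from a single split extract, as the labels say, which pairs them by design. Their deviations from the line mean correlated at 0.0035 to 0.026. Deviations from the genotype mean, which the model fits, correlated at 0.0035 to 0.125, and those of the KO cultures at 0.095 to 0.125. The labels do not say that cultures are independent, and the KO cultures of both clones were fitted as a single group without a term for clone. The p-values therefore measure the spread between these samples and not between independently made lines. The permutation tests likewise took cultures as units. The 10 genes and the lists were chosen with earlier results of these data known. Genes named were the 10 subunits, *Ddx6*, up to 2 rises and 2 falls per list and comparison, and the 5 most like *Cnot1*; *Cnot9*, the GW182 genes, single marker genes and genes that overlap a subunit were named outside this rule, after their values were seen.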

Additional observations from a re-analysis of the deposited data

Results flagged for a closer look

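Among 34 sets of the 4 KO cultures (each subunit in 4sU RNA, total RNA and the ratio, and the shares within the nuclease pairs), 5 had a culture far from the other 3 by Dixon's ratio at the 95% level. Chance gives this for about 1 in 20 independent sets of normal draws from a single population. These sets join cultures of both clones and share the same counts, so the 5 of 34 cannot be judged against that rate. Total *Cnot3* was 48.1 CPM in the first culture of clone 1 and 63.1 to 65.0 CPM in the others. Total *Cnot6* was 107 CPM in that culture and 117 to 118 CPM in the others. The share of *Cnot7* in total RNA was 48.9% in that culture and 51.6% to 51.7% in the others, so the first culture of clone 1 was the low one in 3 of the 5. The log2 ratio of *Cnot1* was 1.42 in the second culture of clone 2 and 1.23 to 1.26 in the others. The log2 ratio of *Cnot11* was -0.53 in the first culture of clone 2 and -0.22 to -0.17 in the others.

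The KO clones differed in *Ddx6* RNA itself, with log2 differences, clone 2 minus clone 1, of -0.56 in nascent RNA (edgeR adjusted p = 9.38e-05), -1.49 in total RNA (adjusted p = 1.01e-15) and -0.93 in the ratio (adjusted p = 0.000554). Beside these, 0 of the 10 subunits passed between the clones.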

How the results depend on the processing

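Of 610 log2 fold changes of single subunits under the alternatives, 544 kept their direction and side of the threshold, 39 no longer passed, 7 newly passed and 20 changed sign, none of which had passed. The sign of the nascent value of *Cnot11* changed with library-size scaling (0.14) and with the second 4sU run alone (0.0074), and leaving out single cultures gave -0.148 to 0.0062. In total RNA, library-size scaling gave 0.047 for *Cnot3*, 0.075 for *Cnot6l* and 0.018 for *Cnot11*, and *Cnot6l* was 0.011 with TMM within each assay, 0.020 with no filter beyond 1 count and 0.0071 with clone 2 alone, while *Cnot3* was -0.224 to 0.023 without single cultures. The ratio of *Cnot7* was 0.015 with DESeq2, 0.015 with median-ratio size factors, 0.048 with TMM within each assay, 0.0032 with no filter, 0.0063 with the first 4sU run alone and -0.137 to 0.057 without single cultures. That of *Cnot11* was 0.016 with TMM within each assay, 0.024 with clone 1 alone and -0.171 to 0.017 without single cultures. The subunits had 92 to 1531 counts per 4sU library and 237 to 9185 per total library.

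The number of subunits with changed nascent RNA was 8, and was 5 with the second 4sU run alone, 4 with clone 1 alone, 5 with clone 2 alone and 3 to 7 when single cultures were left out; the cause was not tested. It was 5 for total RNA (4 to 5 with single cultures left out) and 5 for the ratio (4 to 5). Past 2-fold in nascent RNA, 1 subunit (*Cnot4*) passed in place of 0 with library-size scaling, TMM within each assay, TMM without chromosome 6 genes, no filter, the stricter filter, the second 4sU run alone and clone 2 alone, and 0 to 1 when single cultures were left out. With culture as a replicate block 5 subunits had a changed ratio, as without it; with the replicate number as a replicate block across genotypes, for which the labels give no shared origin (correlations -0.038 to 0.088), 6 changed in nascent RNA. The replicate block changed no call of the ratio. The difference of the *Cnot6l* share in total RNA was -7.82 percentage points from counts not divided by length, and -7.40 to -5.76 when single cultures were left out. Of the 10 places in the wild-type order, 6 were kept in 4sU levels with the first 4sU run alone and 6 to 10 without single cultures, and 5 in the ratio with the second 4sU run alone.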
